A study of Mus musculus with 32 samples.

Results

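LSK cells of the E12.5 fetal liver were compared with LSK cells of another site of the same age, labelled E12.5 PL, by ATAC-seq, an assay in which a transposase cuts and tags DNA where chromatin is accessible, so that the number of reads over a region measures its accessibility. The labels do not spell out PL, and it is kept as written. Both groups held 3 libraries (FL 1 to 3 and PL 1 to 3) from C57BL/6 mice, and the labels name no genetic change or treatment for them. These 6 libraries belong to 26 of a developmental series, in which LSK cells were also taken from the E16.5 fetal liver and from sites labelled BM (bone marrow, as commonly abbreviated) at perinatal age, 1, 3, 4, 6 and 8 weeks, and to 32 libraries in all. LSK stands for lineage-negative, Sca-1-positive and Kit-positive, a surface phenotype by which blood stem cells and early progenitors are sorted, and some endothelial cells carry the same markers. The comparison took the 96960 autosomal regions of the 99037 in the deposited table. Regions within 1 kb of either end of a gene are called gene-end regions here (17376), and all others distal (79584), of which 42110 lay inside a gene, 24522 between genes within 50 kb of one, and 12952 farther from any gene. Fold changes are of FL over PL, so that higher means higher in the fetal liver, and levels are CPM, counts brought to an equal library total after TMM scaling.

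In the mouse embryo the fetal liver is the main organ of blood formation at this age, and blood stem and progenitor cells also reside in other vascular sites. These cells arise from haemogenic endothelium, a vessel lining that turns into blood under the control of factors such as Runx1 and Gata2 and of Notch signalling, and they lose the endothelial program as they mature. Accessible regions at gene starts are often open in many cell types, while distal regions, many of them enhancers, differ more between lineages, and so both classes were kept apart.

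The start windows of 8 genes show the letters under the gene-end regions on which the comparison turned. Each runs 5′ to 3′ on the gene's strand from 250 bases before the start to 50 bases into the gene in RefSeq (GRCm38.p6, the assembly of build mm10). The capitals mark matches, on either strand, to 6 short words: GGAAGT for ETS factors, TGTGGT for RUNX factors, GGGCGG for SP and KLF factors, AGATAA for GATA factors, TGANTCA for AP-1 and TGACGTCA for CREB and ATF factors. The first 4 lay in regions higher in FL. They belong to Ptprc, which encodes the pan-blood phosphatase CD45 (chr1:138175256-138175555, minus strand), Traf3ip3, an adaptor of lymphoid cells (chr1:193201497-193201796, minus strand), Runx1 (chr16:92826025-92826324, minus strand) and Mpo, the myeloperoxidase of neutrophil granules (chr11:87793534-87793833, plus strand).
Ptprc: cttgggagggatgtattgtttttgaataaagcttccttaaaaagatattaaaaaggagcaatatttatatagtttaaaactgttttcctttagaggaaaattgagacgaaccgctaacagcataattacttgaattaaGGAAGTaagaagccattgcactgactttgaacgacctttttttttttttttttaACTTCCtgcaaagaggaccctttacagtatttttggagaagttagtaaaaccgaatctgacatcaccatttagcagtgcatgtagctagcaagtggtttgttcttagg
Traf3ip3: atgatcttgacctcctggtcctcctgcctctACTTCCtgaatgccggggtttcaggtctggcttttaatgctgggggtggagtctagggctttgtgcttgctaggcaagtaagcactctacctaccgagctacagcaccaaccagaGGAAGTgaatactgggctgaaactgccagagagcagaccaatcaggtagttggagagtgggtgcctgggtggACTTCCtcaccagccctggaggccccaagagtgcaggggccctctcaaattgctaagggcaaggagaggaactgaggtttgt
Runx1: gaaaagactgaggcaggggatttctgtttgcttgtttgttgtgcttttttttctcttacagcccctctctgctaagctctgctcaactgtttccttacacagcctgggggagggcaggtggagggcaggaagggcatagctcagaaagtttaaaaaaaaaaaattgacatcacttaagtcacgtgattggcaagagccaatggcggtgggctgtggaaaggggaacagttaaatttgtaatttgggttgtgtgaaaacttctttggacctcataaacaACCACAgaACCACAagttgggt
Mpo: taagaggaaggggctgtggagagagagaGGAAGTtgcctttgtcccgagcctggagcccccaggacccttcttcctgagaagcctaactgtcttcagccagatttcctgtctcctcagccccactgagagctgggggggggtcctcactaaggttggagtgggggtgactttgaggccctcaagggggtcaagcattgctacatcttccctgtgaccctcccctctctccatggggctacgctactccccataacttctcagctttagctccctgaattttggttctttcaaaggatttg
The other 4 lay in regions lower in FL. They belong to Atf3, a stress-induced partner of AP-1 factors (chr1:191183284-191183583, minus strand), Ptms, a small acidic nuclear protein (chr6:124917897-124918196, minus strand), Krt8, a keratin of simple epithelia (chr15:102004293-102004592, minus strand), and Tie1, an endothelial receptor kinase (chr4:118489800-118490099, minus strand).
Atf3: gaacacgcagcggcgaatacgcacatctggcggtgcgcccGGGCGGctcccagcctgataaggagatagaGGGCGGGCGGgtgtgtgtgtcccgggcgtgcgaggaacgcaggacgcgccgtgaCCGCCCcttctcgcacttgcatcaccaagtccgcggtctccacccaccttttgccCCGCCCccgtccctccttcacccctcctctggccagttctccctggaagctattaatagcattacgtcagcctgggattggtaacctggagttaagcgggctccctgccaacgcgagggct
Ptms: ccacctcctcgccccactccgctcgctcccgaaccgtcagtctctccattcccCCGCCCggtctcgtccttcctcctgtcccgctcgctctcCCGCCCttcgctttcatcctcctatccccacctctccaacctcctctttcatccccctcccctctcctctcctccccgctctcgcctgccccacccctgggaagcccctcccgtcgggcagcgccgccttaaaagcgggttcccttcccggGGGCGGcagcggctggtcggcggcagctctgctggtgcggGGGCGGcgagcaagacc
Krt8: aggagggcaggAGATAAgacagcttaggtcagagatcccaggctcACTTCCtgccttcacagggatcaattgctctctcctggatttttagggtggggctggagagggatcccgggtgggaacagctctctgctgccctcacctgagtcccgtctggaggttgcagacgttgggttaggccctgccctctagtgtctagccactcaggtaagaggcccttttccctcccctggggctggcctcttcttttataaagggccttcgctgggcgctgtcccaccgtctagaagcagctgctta
Tie1: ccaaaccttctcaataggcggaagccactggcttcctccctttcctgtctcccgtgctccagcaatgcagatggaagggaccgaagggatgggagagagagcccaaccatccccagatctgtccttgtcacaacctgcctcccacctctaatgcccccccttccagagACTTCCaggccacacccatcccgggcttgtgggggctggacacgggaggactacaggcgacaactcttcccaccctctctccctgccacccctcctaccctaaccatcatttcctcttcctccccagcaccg
Traf3ip3 held 3 ETS words, Ptprc 2 and Mpo 1, and Runx1 held 2 RUNX words. Atf3 held 5 SP/KLF words and Ptms 4, and neither held an ETS word. Krt8 held 1 GATA and 1 ETS word and Tie1 1 ETS word.

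The same words were counted in the windows under gene-end regions that differed at least 2-fold. Of all 18640 windows (15213 genes), 25.0% held the ETS word, against 38.6% of the 360 windows in regions higher in FL and 22.6% of the 1474 in regions lower in FL. The longer word of the myeloid and lymphoid ETS factor PU.1, GAGGAAGT, which contains the ETS word, was in 14.7% of the higher, 2.1% of the lower and 3.22% of all windows. The RUNX word was in 29.7%, 10.5% and 14.2% of them. The SP/KLF word ran the other way, at 29.2% of the higher, 76.5% of the lower and 49.1% of all windows, and the AP-1 word was in 6.67%, 6.99% and 7.12%. Over all called regions whatever their fold, with 543 windows higher and 6332 lower, the PU.1, RUNX and SP/KLF words kept these orders (12% and 2.51%, 25.0% and 10.1%, 36.8% and 76.3%). There the ETS word was in 34.3% and 27.2%, and the AP-1 word in 6.63% and 4.14%. The 18640 windows include 7981 that overlapped no tested gene-end region. The 3784 windows under regions not called are the nearer comparison. Of these 29.2% held the ETS word, between the higher and the lower windows, and 4.89% the AP-1 word, fewer than in both 2-fold sets. The PU.1, RUNX and SP/KLF words were in 3.12%, 12.8% and 59.5% of them, also between the higher and the lower windows. Base composition moved with direction as well: the median GC content was 54.3% in the higher and 65.0% in the lower windows (57.3% in all), and the median ratio of observed to expected CpG was 0.29 and 0.77 (0.61 in all). Its part in the differences between windows was not tested. A word is a description of letters, not of binding.

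The total counts were 3681041 to 3968734 in FL and 4498323 to 5066732 in PL libraries. PL 2 stood apart: it had the longest peak list, 37324 against 24968 and 27721 for PL 1 and PL 3, and its counts differed from theirs by a chi-square per region of 5.88 and 5.56, against 2.68 between PL 1 and PL 3 and 2.32 to 3.57 among FL libraries. Its summed distal level over an endothelial gene list was the lowest of the 3 PL libraries and those over trophoblast, hepatocyte and stromal lists the highest, and named calls that were lost without PL 2 are marked as such. FL lists held 19244 to 23478 peaks. Of the genes behind the sort markers, the Kit start was in the peak lists of all 6 libraries, and Ly6a, which encodes Sca-1, was at 0.702 to 5.53 CPM at its end. The labels do not say whether libraries came from separate animals or pools, so the p-values measure the spread between these libraries, which may be technical. In bulk samples, a smaller share of cells of a type and less accessibility per cell cannot be told apart.

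A smaller share of the counts lay at gene ends in the fetal liver. Gene-end regions took 40.64%, 38.04% and 40.22% of the counts of FL 1 to 3 and 48.81%, 46.39% and 45.5% of those of PL 1 to 3, so that all FL libraries lay below all PL libraries (39.6 ± 1.4% against 46.9 ± 1.7%, SD, n = 3 each, a difference of −7.27 percentage points). The exact permutation test over libraries, two-sided, gave p = 0.1, the smallest that 3 against 3 libraries allow. Regions within 1 kb of a gene's start alone took 33.7 ± 1.2% and 40.5 ± 1.5% (exact permutation p = 0.1). The number of peaks did not follow: gene-end peaks were 45.6 ± 4.0% of the lists in FL and 42.7 ± 6.5% in PL (exact permutation p = 0.5), and PL 2 with its long list had the lowest share, 35.8%. Among other groups the share of counts was 35.41% to 39.97% in E16.5 FL libraries and 41.2% to 45.29% in BM ones, so that all BM libraries lay below all 3 E12.5 PL libraries.

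**Figure D1:**
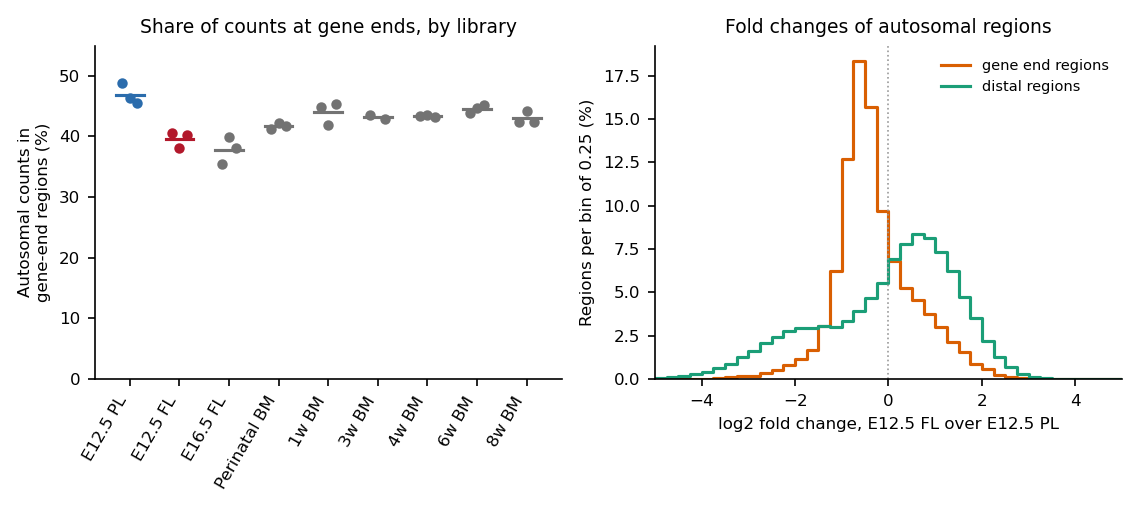
Left, the share of counts in gene-end regions in percent for each library of the 9 developmental groups (points) with the group mean (line); right, the percent of the regions of each class by log2 fold change of E12.5 FL over E12.5 PL in bins of 0.25 for gene-end (orange) and distal (green) regions. The 3 E12.5 PL libraries are at 45.5% to 48.81% and the 3 E12.5 FL libraries at 38.04% to 40.64%; the gene-end distribution has its median at −0.44 and the distal one at 0.28, which become −0.01 and 0.08 when each class is scaled by itself.

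Region by region, the classes split accordingly. Of 17375 gene-end regions tested by quasi-likelihood in edgeR, 1893 were higher in FL (10.9%) and 7655 lower (44.1%) at an adjusted p under 0.05, with a median log2 fold change of −0.44. Of 79546 distal regions, 20636 were higher (25.9%) and 17840 lower (22.4%), with a median of 0.28. In 8878 of the 9548 called gene-end regions and 34702 of the 38476 called distal ones the FL and PL libraries did not overlap, against 60.5% and 54.8% of all regions tested in each class. The direction of the gene-end balance depended on the scaling. With factors computed from gene-end regions alone, 3601 were higher and 3241 lower (median −0.01), with library totals 2943 and 4473 (−0.15), and with the size factors of DESeq2 1333 and 9683 (−0.66). Among distal regions the balance turned too: factors from distal regions alone gave 15629 higher and 20455 lower (median 0.08), and size factors of DESeq2 15684 and 21221 (0.07), whereas library totals gave 27911 and 13442. It also turned when the 6 E12.5 libraries were filtered, scaled and fitted alone, to 15763 higher and 18238 lower of 69860 distal regions tested (median 0.23). Directions of single genes below are those with TMM factors over all regions, to be read against the medians of their class, and where a gene has 2 fold changes that of its gene ends comes first.

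The start of the assigned gene was known for 13695 of the 17376 gene-end regions. Among these the excess of lower calls lay at gene starts and not at other gene ends. The remaining gene-end regions could not be placed at a start or elsewhere. The fold change was lower at gene ends of high level than of low level. Of 11076 gene-end regions within 1 kb of their own gene's start, 793 were higher (7.16%) and 5625 lower (50.8%; median −0.51), while of 2618 gene-end regions over 1 kb from that start 667 were higher (25.5%) and 511 lower (19.5%; median 0.29). Level moved with direction in both classes. In 4 equal bins from the lowest to the highest mean level, the median log2 fold change of gene-end regions was 0.16, −0.23, −0.53 and −0.61, and that of distal regions −1.51, 0.43, 0.57 and 0.54. When offsets that follow the level (cyclic loess) took the place of single factors, 1398 gene-end regions were higher and 5239 lower (median −0.25), and 12742 distal regions were higher and 11968 lower (median 0.07). Distal regions inside genes had 10538 higher and 9918 lower, those between genes 6227 and 5149, and regions over 50 kb from any gene had 3871 higher and 2773 lower.

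Summed per gene, gene-end counts were higher in FL for 1226 of 12938 genes (9.48%) and lower for 6940 (53.6%; median −0.48), and distal counts were higher for 3789 of 13039 (29.1%) and lower for 3415 (26.2%; median 0.11). Both sums could be tested in 9964 genes. In 503 of these both were higher, in 1774 both lower, in 1247 the gene end was lower and the distal sum higher, and in 118 the reverse. The difference between both fold changes was itself called in 3908 genes with distal above gene end (39.2%) and 1102 with distal under it (11.1%), which became 1719 and 2754 with each class scaled by itself. Gene lists for 18 cell types and pathways were therefore read class by class, each beside the median of all genes in that class (−0.48 and 0.11). Their members were chosen with earlier results of these data known, so their counts and medians are a description and no independent support. Counts of a list are to be read against the shares of all genes just given, 9.48% higher and 53.6% lower by gene ends and 29.1% and 26.2% by distal sums. Counts of the distal regions of 1 gene are to be read against all distal regions, 25.9% higher and 22.4% lower. Medians given for a list are of log2 fold changes. A list of neural, muscle and retinal genes, which have no known part in blood, was read first. At gene ends 3 of its 11 members were higher and 1 lower (median 0.33, and −0.1 with loess offsets), 10 of them above the median of all genes. At distal regions 5 of 16 were higher and 2 lower (median 0.53, and 0.07 with loess offsets). Medians of the lineage lists below are to be read beside these as well as beside those of all genes, and the part of level in them was not tested.

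**Figure D2:**
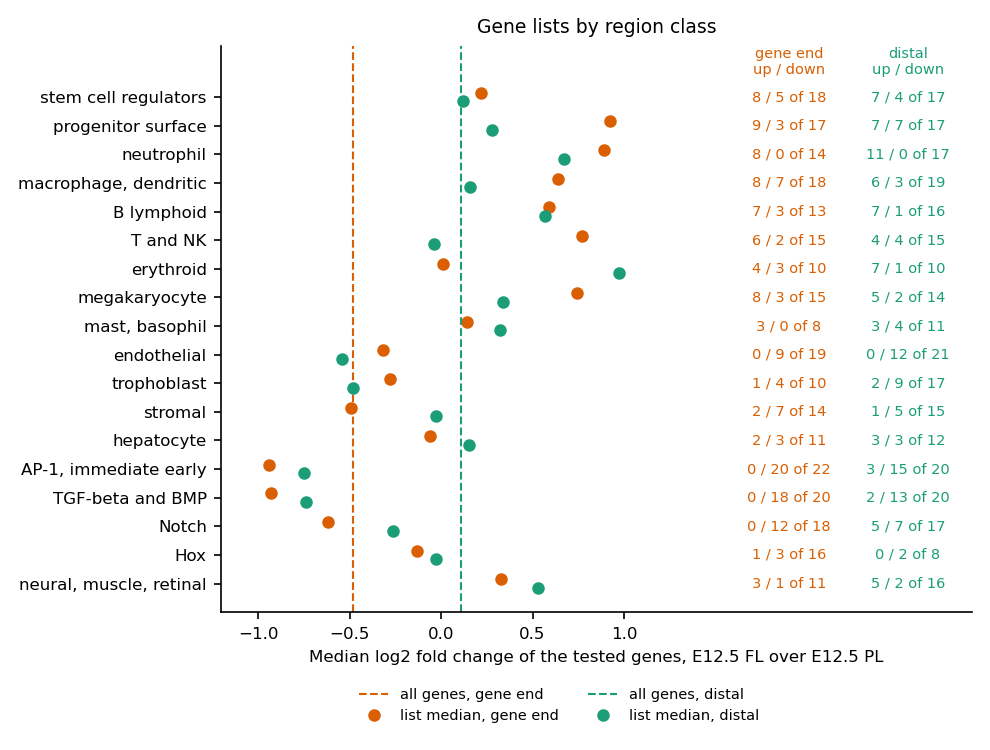
Median log2 fold change of E12.5 FL over E12.5 PL (horizontal axis) for each gene list at gene ends and at distal regions, with the numbers of genes called higher and lower; dashed lines are the medians of all genes, −0.48 and 0.11. The neutrophil list is at 0.89 and 0.67 and the AP-1 list at −0.94 and −0.75; under other scalings the medians near 0 change sign, among them endothelial gene ends (−0.32, and 0.11 with factors from gene ends alone), trophoblast gene ends (−0.28, and 0.15) and distal stem cell regulators (0.12, and −0.1 with size factors of DESeq2).

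Among transcription factors of blood stem and progenitor cells, Runx1 and the repressors Gfi1 and Gfi1b were more accessible in the fetal liver, and Gata2 less so at distal regions. Of 18 such regulators with gene-end counts 8 were higher and 5 lower (median 0.22, 14 of them above the median of all genes), and of 17 with distal counts 7 were higher and 4 lower (median 0.12), which became 5 higher and 8 lower with size factors of DESeq2 (−0.1) and 5 and 6 with factors from distal regions alone (−0.08). The gene-end sum of Runx1, which is needed for blood to form from endothelium, was 30.6, 21.8 and 28.4 CPM in FL and 6.73, 6.07 and 9.95 in PL (log2 fold change 1.82, SE 0.23, adjusted p = 1.5e-09). Its 32 distal regions included 19 higher and 2 lower, and their sum was 338, 231 and 287 CPM in FL and 140.0, 209 and 174 in PL (log2 fold change 0.71, SE 0.12). Every FL library was above every PL library in both classes. Gfi1, which restrains the cycling of stem cells and directs granulocytes, had 31.5, 31.1 and 35.3 CPM at its ends in FL and 14.4, 12.8 and 16 in PL (log2 fold change 1.18, SE 0.18) and a distal log2 fold change of 1.01. Gfi1b, its erythroid and megakaryocytic relative, was higher in both classes (log2 fold change 1.33 and 0.72), and Lmo2, a bridge protein of the Tal1 complex, at distal regions (0.79). The ETS factor Fli1 was higher at distal regions (log2 fold change 0.53, SE 0.12), and Erg showed no called difference in either class (−0.24 and −0.09). Tal1 (gene ends log2 fold change 0.43) and Mecom (gene ends 0.71) were called higher, but neither call held without FL 3 or without PL 2 (0.26 and 0.71) or with size factors of DESeq2, and Mecom also lost it without PL 3.

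Gata2, a zinc finger factor of stem cells that also acts in endothelium and mast cells, was called at distal regions only. That is no test of a difference between the classes. Its gene ends were 7.02, 4.45 and 9.14 CPM in FL and 7.94, 8.32 and 8.56 in PL and were not called (log2 fold change −0.27, adjusted p = 0.44). Its distal sum was 68.4, 67 and 64.2 CPM in FL and 137, 96.5 and 135 in PL, with no overlap (log2 fold change −0.88, SE 0.13, adjusted p = 6.3e-07), and 5 of its 8 distal regions were lower. Also lower were the gene ends of Bmi1, a Polycomb subunit of stem cell self-renewal (log2 fold change −1.34), and of the ETS repressor Etv6 (−0.88), and the distal regions of Cbfb, the partner of RUNX proteins (−0.72). The gene ends of Meis1 (log2 fold change −0.59, against a median of −0.48 over all genes) lost their call with library totals or factors of their own class.

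Among surface genes of stem and progenitor cells, Ptprc, Flt3 and Cd48 were higher in FL in both classes and Procr was lower in both. At gene ends 9 of 17 surface genes were higher and 3 lower (median 0.92), against 9.48% and 53.6% of all genes, and at distal regions 7 of 17 each way (median 0.28). Ptprc had 16.8 ± 0.41 CPM (SD, n = 3) at its ends in FL and 2.41, 7.2 and 6.71 in PL (log2 fold change 1.61, SE 0.26, adjusted p = 7.4e-07). Its distal sum was 86.3, 107 and 95.1 CPM in FL and 36.1, 40.3 and 40.7 in PL (log2 fold change 1.3, SE 0.14), with 6 of 9 distal regions higher and none lower. CD45 marks nearly all blood cells and is absent from mature endothelium, and the groups did not overlap in either class. Flt3, the receptor of multipotent and lymphoid progenitors, had 48.2, 41.9 and 42.2 CPM in FL and 19, 11.5 and 17.6 in PL at gene ends (log2 fold change 1.46, SE 0.2) and 101, 114 and 120.0 against 31.3, 39.1 and 38.9 at distal regions (1.61, SE 0.13, adjusted p = 5.3e-13). Here too each FL library exceeded each PL library, more than 2-fold on the group means. Cd48, an immune receptor of committed progenitors (log2 fold change 1.55 and 1.43), Slamf1, the stem cell marker CD150 (gene ends 1.56), and Itga4, an integrin of homing (distal 1.57), were also higher. Cd34, carried by progenitors and endothelium, was called in neither sum (log2 fold change 0.02, SE 0.2, and 0.28, SE 0.13), although its distal call appeared with library totals or without FL 1 (0.56 and 0.42). Of its 10 distal regions 5 were higher and 1 lower, and of its 2 gene-end regions 1 was higher.

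In Cd93, Itga2b and Kit, singled out after their values were seen, the distal fold change was under that of the gene ends. Alcam, of the same list, went the other way, with log2 fold changes of −0.81 and 0.7 (difference 1.52, SE 0.2). Over all genes with both sums, the distal change was called above that of the gene ends in 39.2% and under it in 11.1%. Cd93, a lectin-like receptor of early progenitors and endothelium, had 20.8, 36.1 and 25.9 CPM at its end in FL and 12, 9.45 and 19.2 in PL (log2 fold change 1.02, SE 0.22, adjusted p = 5.3e-05). Its distal sum was 35.3, 51.3 and 35.1 CPM against 82.3, 55.3 and 87 (log2 fold change −0.88, SE 0.17, adjusted p = 2.4e-05). The groups did not overlap in either class and lay in opposite order. The difference between the fold changes was −1.92 (SE 0.24, adjusted p = 4.5e-08). Itga2b, the integrin CD41 of nascent blood stem cells and megakaryocytes, had a log2 fold change of 0.92 and −0.59, the distal call being lost with library totals (−0.31). Procr, the protein C receptor of stem cells and endothelium, was lower in both classes (log2 fold change −1.2 and −0.6). Ly6a was at 3.17, 0.702 and 1.73 CPM in FL and 5.53, 4.72 and 4.16 in PL at its end (log2 fold change −1.34, SE 0.54, adjusted p = 0.028; −1.97 without FL 1), a call that did not hold without FL 2, FL 3 or PL 1 or with library totals.

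Kit, the stem cell factor receptor by which the cells were sorted, showed no called difference over its start and was lower beside it and farther inside the gene. The region over its start (chr5:75574665-75575238) had 29.2, 23.4 and 22.2 CPM in FL and 23.8, 24.3 and 26.6 in PL (log2 fold change 0.0, adjusted p = 0.99). The next one, at 0.8 kb (chr5:75575536-75576088), also counted as a gene end, had 9.06, 6.32 and 12.8 CPM in FL and 17.3, 19.1 and 12.3 in PL (log2 fold change −0.79, SE 0.25, adjusted p = 0.0074), with groups that overlapped. The gene-end sum of both was not called (log2 fold change −0.26, SE 0.17), while the distal sum of Kit was 40.3, 34.6 and 62 CPM in FL and 101, 137 and 118 in PL (−1.38, SE 0.17, adjusted p = 1e-08), and the fold changes differed by −1.15 (adjusted p = 0.00016). Of 5 distal regions inside the gene 4 were lower, beside 22.4% of all distal regions. They lay at 14.9, 21.5, 49.3 and 65.8 kb from the start, with log2 fold changes of −1.27, −2.9, −2.46 and −2.59. None of these 4 was in an FL peak list and each was in all 3 PL lists. The region at 65.8 kb had 2.26, 2.81 and 4.94 CPM in FL and 18.8, 25.6 and 16 in PL.

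Downstream of Kit regions were called in both directions, at shares near those of all distal regions (25.9% higher and 22.4% lower). The counts of Kdr below are to be read beside the same shares. Of 29 regions between Kit and Kdr, the gene of the main VEGF receptor of endothelium, 9 were higher and 8 lower. The largest rise was at 156.2 kb (chr5:75730597-75731731), over 50 kb from any named gene, with 40.1, 39.3 and 41 CPM in FL and 3.85, 7.42 and 5.55 in PL (log2 fold change 2.83, SE 0.22, adjusted p = 1.7e-14). This region was in 3 FL and no PL peak lists, and its mean was 36.8 CPM in E16.5 fetal liver and 49.2 to 66.9 CPM in the BM groups. Regions at 105.1, 120.3, 216.7 and 255.5 kb had log2 fold changes of 2.15, 2.28, 1.57 and 1.47, and between them those at 239.6 and 251.6 kb had −3.17 and −1.91. Of the 11 distal regions assigned to Kdr 9 were lower and 1 higher. Inside the gene lay 4 of them, 3 lower and none higher, and the others lay between genes, those at 325.5, 347.1 and 347.9 kb being among the 8 lower ones between Kit and Kdr.

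**Figure D3:**
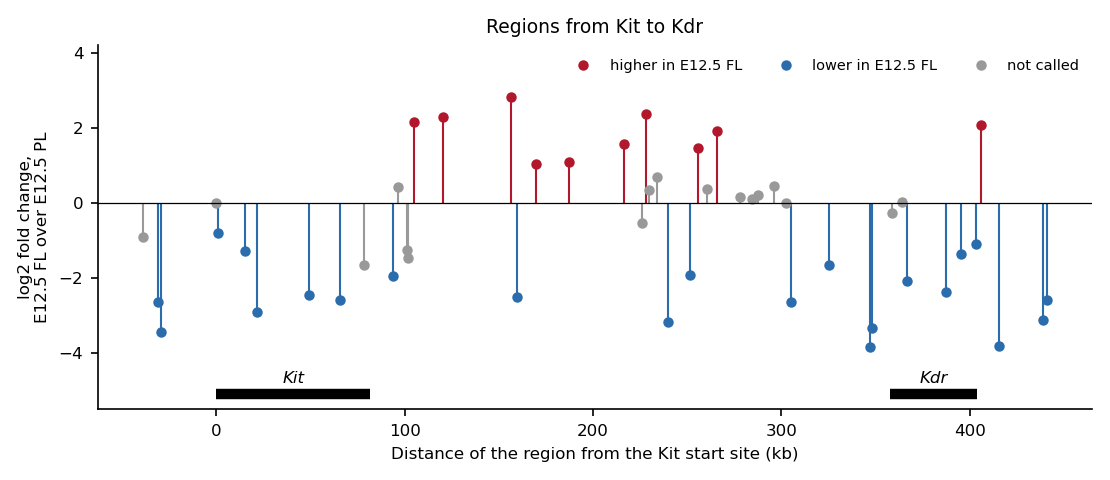
Log2 fold change of E12.5 FL over E12.5 PL (vertical axis) of each region against its distance in kb from the Kit start (horizontal axis); red is higher, blue lower and grey not called, and the bars below span Kit (0 to 81.7 kb) and Kdr (357.8 to 404.1 kb). Of the 5 distal regions inside Kit 4 are lower, as is the gene-end region at 0.8 kb, between the genes 9 of 29 are higher and 8 lower, and around Kdr blue points prevail. Of all distal regions 25.9% are higher and 22.4% lower.

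Genes of a neutrophil and myeloid list were higher in the fetal liver or not called, in both classes. Of 14 with gene-end counts 8 were higher and none lower (median 0.89, and 0.66 with loess offsets), with 3 lower under the size factors of DESeq2 and 1 lower without PL 2, and of 17 with distal counts 11 were higher and none lower under any scaling (median 0.67, and 0.54 with loess offsets). All 14 gene-end and 15 of 17 distal members lay above the median of all genes. Mpo had 8.61, 10.3 and 10.6 CPM at its start in FL and 2.41, 0.45 and 1.85 in PL (log2 fold change 2.64, SE 0.44, adjusted p = 1.1e-06), and its distal log2 fold change was 1.33. Ltf, lactoferrin of secondary granules, was higher in both (log2 fold change 1.78 and 1.96), and Itgam, the integrin CD11b, had a distal log2 fold change of 1.5 (78.8, 70.2 and 64.2 CPM in FL, 22.1, 26.3 and 27.1 in PL). Csf3r, the G-CSF receptor, was higher at its ends (log2 fold change 1.63) and Prtn3, a granule protease, at distal regions (1.39). All these had groups that did not overlap. Cebpa, the factor that commits progenitors to granulocytes and monocytes, differed at distal regions: 50.3, 54.5 and 41.7 CPM in FL and 21.4, 22.9 and 23.1 in PL (log2 fold change 1.12, SE 0.16, adjusted p = 1.2e-07), with 6 of 8 regions higher. Its gene ends were not called (log2 fold change −0.23, SE 0.17), and the difference of the fold changes was 1.35 (adjusted p = 3.3e-06). Spi1, which encodes PU.1, was higher at its ends (log2 fold change 0.89). Its distal value, log2 fold change 0.42, lost its call under 8 settings, among them size factors of DESeq2 and the removal of FL 1, FL 3, PL 1 or PL 3.

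Macrophage and dendritic genes did not move as one. At gene ends 8 of 18 were higher and 7 lower (median 0.64), and at distal regions 6 of 19 higher and 3 lower (median 0.16, and −0.05 with size factors of DESeq2). Adgre1, the macrophage antigen F4/80, had 42.8, 46.1 and 41.3 CPM in FL and 10.6, 11.7 and 9.95 in PL at distal regions (log2 fold change 2.01). Siglech of plasmacytoid dendritic cells (log2 fold change 1.92 and 1.69), and the chemokine receptors Ccr2 (gene ends 2.02) and Cx3cr1 (distal 1.29) were higher too. That of Ccr2 was 1.43 without PL 2 and 3.12 without PL 3. Mertk, a receptor for dead cells (log2 fold change −1.98 and −1.19), and Klf4, a monocyte factor that is also an immediate-early gene of other cell types (−1.63 and −1.5), were lower in both. Irf8, the factor of monocytes and dendritic cells, had lower gene ends, 21.3, 15 and 17.8 CPM in FL and 37.3, 34.6 and 31.2 in PL (log2 fold change −0.93, SE 0.2, adjusted p = 5.8e-05), with no called distal difference (0.13).

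Of the B-lymphoid genes 7 of 13 were higher and 3 lower at gene ends (median 0.59) and 7 of 16 higher and 1 lower at distal regions (median 0.57). Ikzf1, which encodes the lymphoid regulator Ikaros, had 50.3, 48.5 and 40.8 CPM in FL and 24.5, 23.8 and 13.9 in PL at its ends (log2 fold change 1.16, SE 0.19) and 171, 159 and 161 against 57.7, 82.8 and 53.7 at distal regions (1.34, SE 0.12, adjusted p = 6.4e-12). Of its 19 distal regions 11 were higher and 1 lower. Ighm, the constant region of the IgM heavy chain, had 77.5, 106 and 65.5 CPM in FL and 17.1, 21.1 and 24.3 in PL at distal regions (log2 fold change 1.99, SE 0.17). Both genes were apart in all libraries. Il7r, the interleukin-7 receptor of lymphoid progenitors (log2 fold change 1.79), and Pou2af1, a B-cell coactivator (1.65), were higher at gene ends. Against this, Foxo1, a factor of B-cell development and of many other cells, was lower at distal regions (log2 fold change −0.94, SE 0.12), and the gene ends of Ebf1 (−0.59) and Tcf3 (−0.62), which drive B-lineage entry, were lower, against a median of −0.48 over all genes, and lost their calls with library totals or their own class's factors, Ebf1 also without PL 1.

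Of the T- and NK-cell genes 6 of 15 were higher and 2 lower at gene ends (median 0.77), and 4 of 15 were higher and 4 lower at distal regions (median −0.04, and 0.24 with library totals, while size factors of DESeq2 gave 1 higher and 7 lower). Runx3, a RUNX factor of cytotoxic cells, was higher in both (log2 fold change 1.65 and 0.95), and Cd3d, a subunit of the T-cell receptor complex, at its end (1.54). Tcf7, the factor TCF-1 of early T cells, was lower at its ends, 14.5, 11.5 and 18.3 CPM in FL and 32.7, 35.3 and 42.6 in PL (log2 fold change −1.32, SE 0.24, adjusted p = 7.3e-06), and not called at distal regions (−0.04). Notch1, the receptor that starts T-cell fate, was called in neither class (log2 fold change −0.18 and 0.26), its distal value passing with library totals (0.54) and without FL 2, PL 1 or PL 3 (0.36 to 0.41). Gata3 was lower at distal regions (log2 fold change −0.48), a call that library totals ended.

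**Figure D4:**
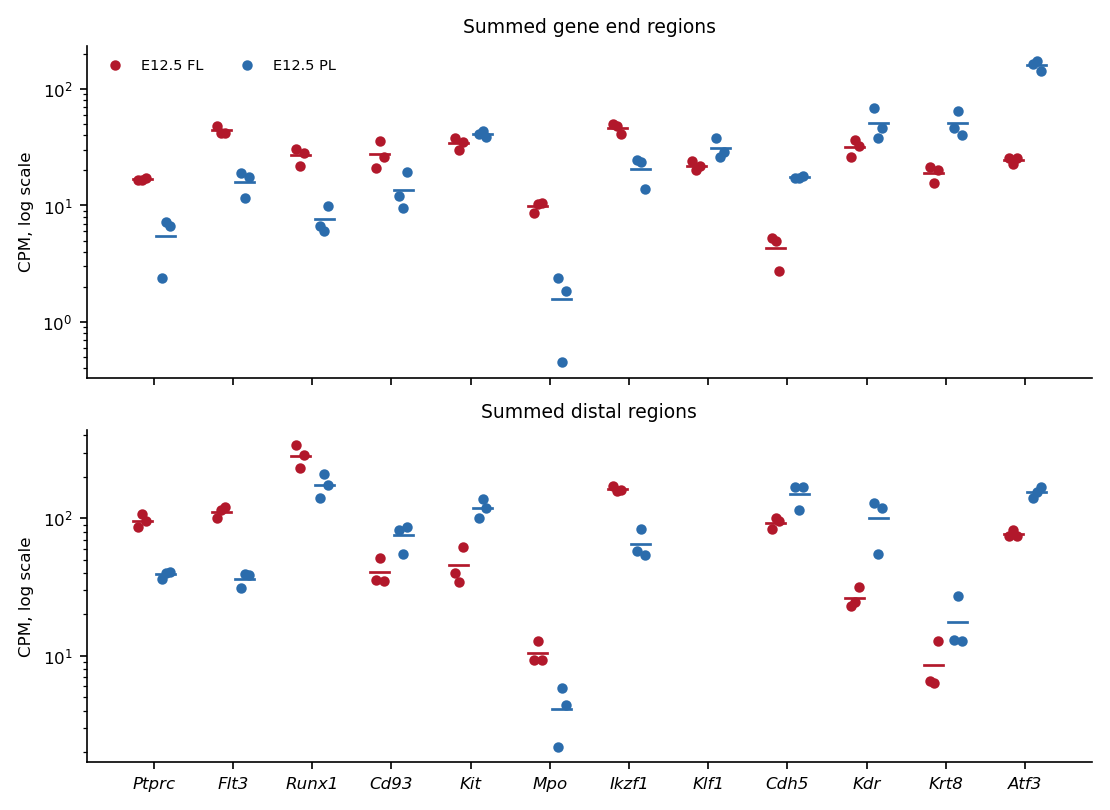
Level in CPM (log axis) of 12 genes in each E12.5 FL and E12.5 PL library (points, with the group mean as a line), summed over gene-end regions in the upper row and over distal regions in the lower row. Ptprc, Flt3, Runx1, Mpo and Ikzf1 lie higher in FL in both rows, Cd93 lies higher above and lower below, and Cdh5, Kdr, Krt8 and Atf3 lie lower in both; with library totals or gene-end factors alone the gene-end values of Kdr and Klf1 are no longer called, nor is the distal value of Krt8 without PL 2.

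With TMM factors, erythroid genes were mostly higher at distal regions and mixed at gene ends. Of 10 with distal counts 7 were higher and 1 lower (median 0.97), which became 5 and 3 with loess offsets (0.52). Of 10 with gene-end counts 4 were higher and 3 lower (median 0.01, and −0.2 with size factors of DESeq2). Hbb-bt, an adult β-globin gene, had 12.7, 13.3 and 14.3 CPM in FL and 2.65, 3.15 and 4.63 in PL at distal regions (log2 fold change 1.94, SE 0.32, adjusted p = 3.1e-06). Reads of near-identical globin copies may be split between them. Its end was also higher (log2 fold change 1.21), but not without FL 2 (0.75) or PL 2 (0.87). Nfe2, a factor of globin genes and of platelet release, was higher in both classes, with 43.5, 28.3 and 42.2 CPM in FL and 20, 12.4 and 17.6 in PL at distal regions (log2 fold change 1.19, SE 0.2). Klf1, the erythroid master factor, ran the other way at its ends, 24.2, 20.1 and 21.7 CPM in FL and 38, 26.1 and 28.7 in PL (log2 fold change −0.49, SE 0.2, adjusted p = 0.027). The median over all gene ends was −0.48, and the call was lost with library totals, with gene-end factors alone and without FL 2, FL 3 or PL 1. Zfpm1, the partner FOG1 of GATA factors, was lower at its ends (log2 fold change −0.8), and Tfrc, the transferrin receptor, had lower ends and a higher distal sum (0.97, difference 1.61, SE 0.3).

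Of the megakaryocyte genes 8 of 15 were higher and 3 lower at gene ends (median 0.74), against 9.48% and 53.6% of all genes. At distal regions 5 of 14 were higher and 2 lower (median 0.34), near the 29.1% of all genes that were higher and under the median of the neural and muscle list (0.53). Gp9, a subunit of the von Willebrand factor receptor, had 18.8, 13.6 and 10.6 CPM in FL and 3.37, 5.62 and 2.31 in PL at distal regions (log2 fold change 1.92, SE 0.3). The platelet proteins Plek (distal log2 fold change 1.68), Tubb1 (gene ends 1.67) and Selp (gene ends 1.48) were higher, Tubb1 by 2.68 without PL 3. Thbs1, thrombospondin of platelets and also of endothelium and stroma, was lower at its ends, 18.1, 25 and 12.4 CPM in FL against 63.5, 74.2 and 63.6 in PL (log2 fold change −1.85, SE 0.19). The calls of Pf4 in both classes did not hold after the removal of FL 2, PL 1 or PL 2 (0.57 and 0.52 without PL 2). Of the mast cell list, 3 of 8 gene ends were higher and none lower (median 0.14, and −0.07 with size factors of DESeq2), and 3 of 11 distal sums were higher and 4 lower (median 0.32), the lower ones including Kit and Gata2, already given. Cpa3, the mast cell carboxypeptidase, was higher at its end (log2 fold change 1.65), though not without FL 1 (1.41) or PL 2 (1.32).

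Most of the endothelial genes were lower in the fetal liver at distal regions. Of 21 with distal counts 12 were lower and none higher, against 26.2% and 29.1% of all genes (median −0.54, 19 of them below the median of all genes), and 10 to 14 were lower under every scaling and with each library left out, with 1 higher under library totals. Of 19 with gene-end counts 9 were lower and none higher, no larger a part than the 53.6% of all genes that were lower (median −0.32, which lies above that of all gene ends, and 0.11 with gene-end factors alone, when 6 were lower and 1 higher). This place relative to all genes depended on the scaling. With loess offsets 11 of the 19 were lower and none higher, beside 4563 lower of all 12938 genes. The list median was then −0.68, under the −0.26 of all genes. The summed distal level of the list was 1210, 1140 and 1210 CPM in FL and 2050, 1560 and 1980 CPM in PL, PL 2 being the lowest of its group; without PL 2, 14 were lower (median −0.66). Tek, the angiopoietin receptor, had 12.9, 17.6 and 17.8 CPM in FL and 71.9, 93.8 and 64.3 in PL at distal regions (log2 fold change −2.25, SE 0.24, adjusted p = 3e-10). Eng, a co-receptor for TGF-β and BMP, had 15.9, 16.2 and 13.1 CPM in FL and 72.9, 50.2 and 87.2 in PL (log2 fold change −2.22, SE 0.2, adjusted p = 6e-12), with all 5 distal regions lower, while its ends were not called (−0.15). Both were at least 3-fold lower in each FL library than in each PL library.

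Kdr had a distal sum of 23.1, 24.6 and 31.6 CPM in FL and 129, 54.9 and 118 in PL (log2 fold change −1.93, SE 0.2, adjusted p = 1.4e-10), the value of PL 2 lying between those of FL and of the other PL libraries. At its ends it was 26, 36.3 and 32.1 against 68.1, 38 and 46.3 CPM (log2 fold change −0.69, SE 0.18), a call lost without PL 1 (−0.39), with library totals and with gene-end factors alone. Cdh5, VE-cadherin of endothelial junctions, had 5.21, 4.92 and 2.72 CPM at its ends in FL and 17.1, 17.1 and 18 in PL (log2 fold change −2.01, SE 0.4, adjusted p = 2.5e-05) and a distal log2 fold change of −0.7. Of the 14 distal regions of Cdh5 4 were lower and 2 higher, beside 22.4% and 25.9% of all distal regions. A region inside the gene (chr8:104121773-104122273), singled out after its value was seen, had 0.906, 0.936 and 0.494 CPM in FL and 33.7, 32.8 and 52 in PL (log2 fold change −5.61, SE 0.5, adjusted p = 4.6e-13). It was in no FL and 3 PL peak lists, and its mean was 2.13 CPM in E16.5 fetal liver and 0.866 CPM in BM at 8 weeks. A distal region of Tek, also singled out so (chr4:94746365-94746865), was at 3.4, 2.11 and 3.21 CPM in FL and 38, 51.5 and 33.3 in PL (log2 fold change −3.81). In both regions the lowest PL library was far above the highest FL library. Sox17, an endothelial factor that fetal blood stem cells also need, was lower at distal regions, 44.4, 36.1 and 43.7 CPM in FL and 105, 149 and 92.1 in PL (log2 fold change −1.48, SE 0.2), with 7 of 13 regions lower and 2 higher, and was not called at its ends (−0.32, adjusted p = 0.073). Its relative Sox7 was lower at its ends (log2 fold change −2.1). Tie1 was at 6.11, 7.26 and 5.19 CPM in FL and 36.1, 4.05 and 27.8 in PL at its ends (log2 fold change −1.86, SE 0.38): PL 2 lay below all FL libraries, and the other 2 PL libraries above them, and without PL 2 the value was −2.36.

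Trophoblast, hepatocyte and stromal lists were examined as markers of other cells that a sort could hold. Of 17 trophoblast genes with distal counts 9 were lower and 2 higher (median −0.48), and of 10 with gene-end counts 4 were lower and 1 higher (median −0.28, and 0.15 with gene-end factors alone). With loess offsets 5 of the 10 were lower and none higher (median −0.7, beside −0.26 over all genes). The largest decreases at gene ends were of keratins. Krt19 had 3.4, 0.702 and 0.988 CPM in FL and 9.62, 13.5 and 6.25 in PL at its ends (log2 fold change −2.5, SE 0.56, adjusted p = 0.00012) and −2.51 at distal regions. Without FL 1 the gene-end value of Krt19 was −3.5. Krt8 had 21.3, 15.5 and 20.3 CPM in FL and 46.2, 65.2 and 40.2 in PL at its ends (log2 fold change −1.41, SE 0.2, adjusted p = 3.4e-08), and Krt18, its partner, 25.4, 22.7 and 29.1 against 53.4, 107 and 55.3 at distal regions (−1.48). Keratins of simple epithelia are made by trophoblast and also by other epithelia, and PL 2 was the highest library in all 3. Without PL 2 the distal call of Krt8 was lost (−0.59), as was the gene-end call of Krt18 (−0.38). Krt7, another such keratin, was lower at its end (log2 fold change −1.9), while 2 of its 3 distal regions were higher. Syna, a syncytin of the placental labyrinth, was lower at distal regions (log2 fold change −1.36). The gene ends of Tfap2a, a trophoblast and ectoderm factor, were higher (log2 fold change 1.46), but not without PL 3 (1.15), and by 2.08 without PL 2. The 2 higher distal sums were of the trophoblast stem cell factors Cdx2 (log2 fold change 0.57, adjusted p = 0.02) and Eomes (0.45, adjusted p = 0.03), and neither call held with size factors of DESeq2 (0.35 and 0.24), with distal factors alone or with the 6 E12.5 libraries alone. Cdx2 also lost it without FL 1 or FL 2, and Eomes without FL 3, PL 1 or PL 3. The hormone genes Prl2c2 and Prl3b1 were not called, and Prl3d1, Tpbpa and Synb had no tested region in either class.

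Hepatocyte genes showed no common direction: 3 of 12 distal sums were higher and 3 lower (median 0.15), and 2 of 11 gene ends were higher and 3 lower (median −0.06), both medians changing sign with the scaling. Alb, the albumin gene, was higher at its end, 3.62, 7.26 and 6.42 CPM in FL against 1.92, 1.8 and 1.39 in PL (log2 fold change 1.74, SE 0.49, adjusted p = 0.0018), and not called at distal regions (0.22). Hnf4a, the hepatocyte and endodermal factor, was lower at its ends, 0.679, 1.64 and 0.988 CPM in FL and 7.22, 16.2 and 6.48 in PL (log2 fold change −3.15, SE 0.58), and Foxa2, an endodermal pioneer factor, was lower in both classes (−1.55 and −1.76). The apolipoprotein gene Apob was higher at distal regions (log2 fold change 1.33). Of the stromal list 7 of 14 gene ends were lower and 2 higher (median −0.49, that of all genes being −0.48), and 5 of 15 distal sums were lower and 1 higher (median −0.03), which turned to 1 lower and 6 higher with library totals (median 0.26). The collagen gene Col3a1 (log2 fold change −1.98), the fibronectin gene Fn1 (−1.4) and the chemokine gene Cxcl12 (−1.21) were lower at gene ends, and the mesenchymal receptor Pdgfra at distal regions (−1.14). The summed distal level of the trophoblast list was 430 to 446 CPM in FL and 605 to 724 CPM in PL, that of the hepatocyte list 197 to 251 and 207 to 287, and that of the stromal list 285 to 297 and 338 to 434. The part of such cells in the endothelial and blood results was not tested.

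The immediate-early genes, whose products form or accompany AP-1 and which are induced within minutes of a stimulus, were lower in the fetal liver almost throughout. At gene ends 20 of 22 were lower and none higher (median −0.94), and 15 to 21 were lower and none higher under every scaling, the median being −0.52 with gene-end factors alone. At distal regions 15 of 20 were lower and 3 higher (median −0.75). Atf3, a stress-induced factor that pairs with AP-1 subunits, had a gene-end sum of 25.4, 22.7 and 25.7 CPM in FL and 163, 175 and 142 in PL (log2 fold change −2.7, SE 0.18, adjusted p = 9.4e-19), and its distal sum was lower as well (−1.01). The region over its start (chr1:191182256-191183841), whose window is printed above, was in no FL and 3 PL peak lists. Egr3, a zinc finger factor, was lower in both classes (log2 fold change −1.93 and −1.57), and Klf6, a KLF factor, had a distal sum of 67, 70.2 and 77.3 CPM in FL and 179, 273 and 190.0 in PL (−1.58, SE 0.14). At the ends of the AP-1 subunits themselves the log2 fold change was −1.07 for Fos, −0.87 for Junb, −0.59 for Jun and −1.31 for Fosl2, all called. The value of Jun lay near the median of all gene ends (−0.48), and its call was not refitted under the alternatives. Jund, the AP-1 subunit that resting cells also make, and Egr1 split by class: their ends were lower (log2 fold change −0.83 and −1.2) and their distal sums higher (1.19 and 0.77), with differences of 2.02 and 1.99. Myc and Egr2 were called in neither class.

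Targets and parts of the TGF-β and BMP pathways were also mostly lower. Of 20 genes, 18 were lower and none higher at gene ends (median −0.93, and −0.5 with gene-end factors alone, when 12 were lower and 1 higher), and 13 were lower and 2 higher at distal regions (median −0.74). The inhibitory Smad genes Smad7 (gene ends log2 fold change −1.26) and Smad6 (distal −0.99), which the pathway induces in feedback, were lower, as were the co-receptor Tgfbr3 (−1.23 and −1.18) and the repressor Skil (−1.09 and −0.87). The BMP-responsive genes Id1 to Id4 were lower at their ends (log2 fold change −0.99, −0.97, −0.73 and −1.22). Receptors and ligand differed: the ends of Tgfbr1 (log2 fold change −1.07) were lower, its distal sum was not called (−0.09), and Tgfb1, the ligand, was called in neither class (0.34 and −0.11). The 2 higher distal sums, of Bambi (log2 fold change 0.5) and Tgfbr2 (0.27), lost their calls with size factors of DESeq2 and without FL 2 or PL 2 (0.42 and 0.25 without PL 2), among others.

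With TMM factors, members of the Notch pathway were called lower at gene ends at a share near that of all genes, and they were mixed at distal regions. At gene ends 12 of 18 members were lower and none higher, against 53.6% and 9.48% of all genes (median −0.62, beside −0.48 over all genes; 7 lower and 1 higher with gene-end factors alone). With loess offsets 10 of the 18 were lower and 1 higher, beside 4563 lower of all 12938 genes. The list median was then −0.65, under the −0.26 of all genes. At distal regions 7 of 17 were lower and 5 higher (median −0.26), which became 5 and 7 with library totals (0.03) and 9 and 2 with size factors of DESeq2. Hes1, the target and repressor, had 87.9, 59.9 and 70.6 CPM at its ends in FL and 164, 138 and 153 in PL (log2 fold change −1.06, SE 0.15) and a distal log2 fold change of −1.28 (SE 0.16). The groups did not overlap. Hey1, an endothelial target (log2 fold change −1.56), the ligand gene Dll1 (−1.29) and the feedback inhibitor Nrarp (−1.07) were lower at their ends, and Nrarp also at distal regions (−0.81). Hey2 split like Jund, with lower ends (log2 fold change −0.98), higher distal counts (0.99) and a difference of 1.98 (SE 0.28). Among receptors, Notch1 was not called, and Notch2 (log2 fold change −0.96) and Notch4 (−0.93) were lower at their ends. Rbpj, the DNA-binding partner of the receptors, was lower at distal regions (log2 fold change −0.66).

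Hox genes, which set position along the body and of which several act in stem cells, were mostly not called. At gene ends 1 of 16 was higher and 3 lower (median −0.13, and 0.28 with gene-end factors alone), but 7 were lower with size factors of DESeq2 (−0.35) and with loess offsets (−0.54), and at distal regions none of 8 was higher and 2 lower. Hoxb6 was higher at its ends, 8.38, 4.68 and 8.4 CPM in FL and 3.61, 0.45 and 2.08 in PL (log2 fold change 1.81, SE 0.48, adjusted p = 0.0011), a log2 fold change that was 2.51 without PL 1. Hoxb9 (log2 fold change −1.55) was lower there, and Hoxa9, a stem cell factor, showed −0.03 (SE 0.19).

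The regions with the strongest support outside these lists named further genes. At gene ends higher in FL were Traf3ip3 (chr1:193200896-193201875; 50, 54.5 and 47.7 CPM in FL, 6.49, 13.9 and 13.6 in PL; log2 fold change 2.15, SE 0.2, adjusted p = 3.2e-12) and Nckap1l, the actin regulator HEM1 of blood cells (chr15:103453437-103453978; 27.6, 30.7 and 33.6 and 2.89, 8.1 and 7.17; 2.32). Gpr65, a proton-sensing receptor of lymphoid and myeloid cells (chr12:98269558-98270819), had 40.8, 55.9 and 41 CPM in FL and 10.3, 11.9 and 9.25 in PL (log2 fold change 2.12). The fatty acid transporter family gene Slc27a3, the sugar transporter gene Slc35b4 and the guanine nucleotide exchange factor gene Arhgef18 followed, with log2 fold changes of 2.4, 2.27 and 2.06. Gene ends lower in FL, beside Atf3, were led by Ptms (chr6:124917836-124918359; 5.44, 4.45 and 2.47 and 56.5, 49.3 and 41.6; log2 fold change −3.56, SE 0.3, adjusted p = 6.4e-14), in no FL and 3 PL peak lists. Tead4, the TEAD factor that trophoblast needs (chr6:128299599-128300844), had 11.3, 11.2 and 11.1 CPM in FL and 72.2, 86.8 and 47.2 in PL (log2 fold change −2.61). Socs3, a feedback inhibitor of cytokine signalling (chr11:117969008-117969590), had 16.3, 10.5 and 20 and 76.2, 68.4 and 63.2 (log2 fold change −2.15), and the phosphatase gene Ptpn14 and Lekr1 had log2 fold changes of −2.46 and −2.23. None of these 12 gene-end regions had overlapping groups, as the rule that chose them required.

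Of distal regions higher in FL, those assigned to Bcr, a GTPase-activating protein (chr10:75137115-75137645), had 35.8, 39.6 and 49.9 CPM in FL and 5.53, 6.75 and 4.86 in PL (log2 fold change 2.86), and to Sh2d5 (chr4:138257213-138257795) 31.9, 27.9 and 35.8 and 3.85, 3.6 and 4.86 (2.95). Regions of Utp18, Spata48, Ptpre and Pex5 had log2 fold changes of 2.66, 2.65, 2.56 and 2.4. Among distal regions lower in FL the smallest p belonged to one of Klf9, a KLF factor that glucocorticoids induce (chr19:23134729-23136332), with 18.1, 16.2 and 20 CPM in FL and 98.4, 106 and 108 in PL (log2 fold change −2.52, SE 0.17, adjusted p = 2.7e-16). Its mean was 19.8 CPM in E16.5 FL, 30.0 in perinatal BM and 35.8 in BM at 1 week, nearer to its E12.5 FL level. It was 75.9 CPM at 3 weeks and 86.3 to 92.2 CPM from 4 to 8 weeks, nearer to its PL level. A region of Sptbn1, a spectrin (chr11:30160993-30161493), had 2.72, 0.936 and 1.98 CPM in FL and 56.8, 50.6 and 55.7 in PL (log2 fold change −4.83, SE 0.38), and regions of Tspan9, Tsc22d2, Pakap and Rcan1, the last a calcineurin inhibitor, had log2 fold changes of −4.12, −3.66, −3.58 and −2.96. Over 50 kb from any gene, 1 region on chromosome 12 (chr12:12496437-12498022) was higher, 51.4, 76.8 and 56.1 CPM against 13, 12.6 and 11.6 (log2 fold change 2.31), and 1 on chromosome 3 (chr3:52197923-52198879) lower, 6.11, 2.81 and 6.42 against 48.3, 60.3 and 41.4 (−3.29). A region is assigned to the nearest gene span, which need not be the gene it acts on.

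The called distal regions were more often peaks of the site where they were higher. Peaks were called on the same 6 libraries whose counts chose the regions, so these shares are a description and no separate evidence. Of distal regions lower in FL, 46.1% overlapped peaks of at least 2 of the 3 PL lists and 7.9% of at least 2 FL lists, and of those higher in FL 28% were in FL lists and 3.6% in PL lists. Among distal regions not called the shares were 6.3% in FL lists and 8.69% in PL lists. Gene-end regions lower in FL were mostly peaks in both sites (91.4% in PL and 70.2% in FL). That their signal was lower in FL depended on the scaling, with 7655 called lower by TMM and 3241 by gene-end factors alone. Of gene-end regions higher in FL 30.9% were in FL lists and 9.46% in PL lists, and of those not called 35.6% and 48.4%.

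In the other developmental groups the regions that differed at least 2-fold lay near the fetal liver level. Distal regions lower in FL (15873) had a median of 8.1 CPM in PL and 1.81 in E12.5 FL in the middle library of each group, 2.45 in E16.5 FL and 0.856 to 1.52 in the BM groups. Distal regions higher in FL (18096) had 2.25 in PL and 6.92 in FL, 5.9 in E16.5 FL and 6.06 to 6.43 in BM. At gene ends, regions higher in FL (1380) had 2.92 in PL, 8.4 in FL, 7.76 in E16.5 FL and 7.7 to 8.19 in BM, and regions lower in FL (2373) had 30.1, 11.5, 11.2 and 12.2 to 14.2. The values of E12.5 FL and PL are those that chose the regions and are given as a description. The other 7 groups also entered the choice, through the filter on low counts, the scaling and the shared estimate of spread. In all 4 sets they were nearer to E12.5 FL than to E12.5 PL. With the filter run on the 6 E12.5 libraries alone, 69860 distal regions were tested in place of 79546, so the filter over all groups kept regions that the E12.5 libraries alone would not have kept, and their part in these levels was not tested.

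**Figure D5:**
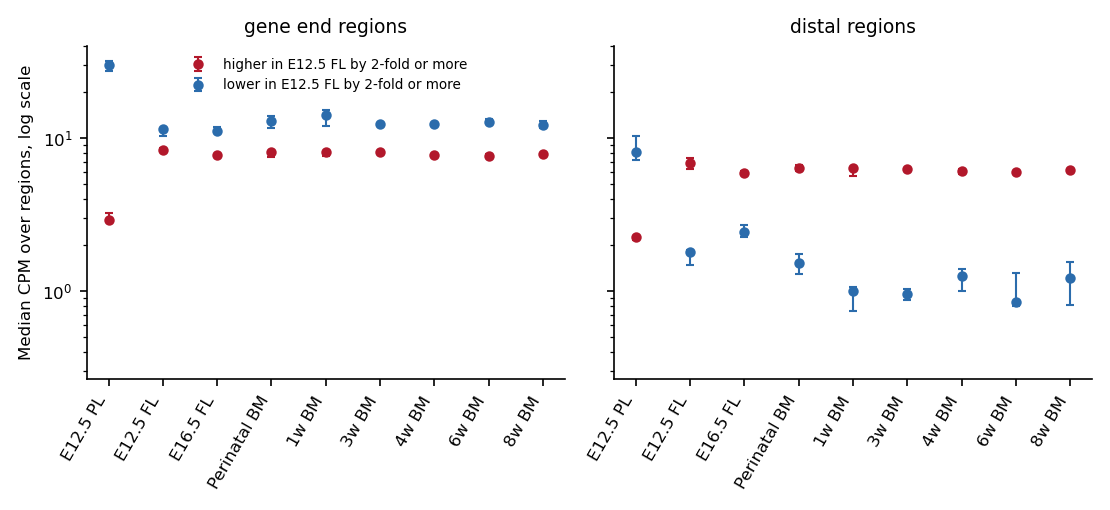
Median CPM over regions at least 2-fold higher or lower in E12.5 FL than in E12.5 PL, at gene ends and at distal regions, in each of the 9 developmental groups (point, the middle library; bars, the lowest and highest library). The E12.5 FL and E12.5 PL values follow from the choice of regions; for distal regions lower in FL the other groups are at 0.856 to 2.45 CPM against 8.1 CPM in E12.5 PL.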

How the data were processed

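The deposited table gives raw counts per region, whole numbers without scaling, for 26 libraries. The authors' peak lists, called per library, give a display score, a fold enrichment ratio and −log10 p and q, and here served to count and overlap peaks by at least 1 base. Per the labels' protocols, nuclei were treated with Tn5 and amplified with 10 PCR cycles, and MACS2, HOMER, DiffBind, deepTools, Trim Galore and build mm10 are listed, per the submitters' processing notes. Which aligner and caller settings were used, and how the Tn5 offset, duplicates and merging of regions were treated, is not given in the sources used here. Any of these could change the counts.

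Regions were placed by the spans of 19940 named RefSeq genes (GRCm38.p6), 1-based, and starts were taken from a RefSeq promoter table that does not hold every gene. Regions passing filterByExpr (minimum count 10) were scaled by TMM and fitted with edgeR 4.0.16 (quasi-likelihood, R 4.3.3) over 26 libraries in 9 groups, which share the estimate of spread, with Benjamini-Hochberg adjustment over the whole table at 0.05. The SE is the fold change divided by the root of F. A library of the 8w BM group carries an E12.5 stage label and was grouped by its title. Counts were also summed per gene and class, and the fold changes of both classes were compared by an interaction term. The fits were tested on simulated counts. Alternatives used DESeq2 1.42.0 and loess offsets of limma 3.58.1 (span 0.3), those on gene sums added after seeing the data. Shares used exact permutation tests, two-sided. Tables were handled in pandas 2.3.3 and numpy 2.4.6 under Python 3.11.15, permutations in SciPy 1.17.1, and figures in matplotlib 3.10.9.

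The members and lists (18 lists, 325 entries) were chosen with earlier results of these data known. Named regions were called, changed at least 2-fold, above their class's median level and without overlap of the 6 libraries, 6 of smallest p per direction and class and 1 per gene. Named genes were 30 set by name and up to 3 called members of each list per direction and class with the largest change. Others were chosen after their values were seen and were not refitted one by one under the alternatives. Libraries with the same replicate number did not deviate together (r = 0.01, 0.01 and 0.03), so none were paired.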

Additional observations from a re-analysis of the deposited data

How the results depend on the processing

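Of the called values of named genes and regions none turned to the other direction under the alternatives checked for them. Those were the other single-factor scalings, the 6 E12.5 libraries alone, a replicate block, DESeq2 and the removal of each library. Loess offsets and other distances or filters were not checked for single values. The balance of higher and lower calls turned with the scaling. Counts within 1.5 times of those reported are mostly not listed. With library totals in place of TMM, 2943 gene-end regions were higher and 4473 lower, 3826 genes were lower by gene-end sums and 2166 by distal sums. With factors from each class alone, 3601 gene-end regions were higher and 3241 lower, 2282 genes were higher and 2558 lower by gene-end sums, and the distal fold change was above the gene-end one in 1719 genes and under it in 2754. With the 6 E12.5 libraries alone, 15763 distal regions were higher and 18238 lower. With loess offsets 12742 distal regions were higher, and 4563 genes were lower by gene-end sums. With gene ends drawn at 2 kb, 2858 gene-end regions were higher, and the difference in gene-end share was −7.0 points. With a replicate block, 1907 gene-end regions were higher and 7770 lower, 20641 distal regions higher and 17489 lower, and the counts of genes were 1238 and 7031 by gene ends, 3831 and 3440 by distal sums and 3914 and 1107 for the difference, so the block changed no call of a named gene. Leaving out each library in turn gave 1593 to 1700 gene-end regions higher and 6301 to 7144 lower, 16623 to 19323 distal regions higher and 13557 to 16039 lower, 1006 to 1121 genes higher and 5911 to 6709 lower by gene ends, 3285 to 3639 higher and 2765 to 3285 lower by distal sums, 3359 to 3785 above and 894 to 1137 under for the difference, and a share difference of −7.97 to −6.31 points. Of 202 called values of named genes and regions, 174 kept their call without PL 2, 179 without FL 2 or without PL 1, 184 to 191 without each of the others, 175 with class factors, 178 with library totals, 182 with DESeq2 and 202 with the block. Depth limits regions of few counts: the lowest of 4 equal bins of distal level had a median of 1.88 CPM, and the labels give no animals behind the libraries.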
